A study of Mus musculus with 4 samples.

Results

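The results below concern microRNA genes that lie outside the Dlk1-Dio3 cluster of mouse chromosome 12, measured after depletion of NF45 in a beta cell line. A gene was taken as a member when its probe set carried exactly 1 gene symbol, the symbol began with Mir and a digit or with Mirlet, the gene did not lie between Dlk1 and Dio3, and the symbol was not that of a host transcript ending in hg. Its mean over all 4 arrays also had to reach 1.65 on the log2 scale, the median of all probe sets. Of 435 such microRNA genes at any level, 141 reached that level and are the members described here (156 probe sets of 41345 in all). The members were thus selected on their measured level over both groups, and their levels are given as a description. The other 294 genes lay below that level and were not tested. For 8 members the siNTC mean alone reached the level, and for 8 the siNF45 mean alone, so the rule favoured the direction of these members.

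The samples were 4 preparations of Beta-TC-6, an established insulin-producing line of mouse pancreatic beta cells grown in medium with 25 mM glucose. In the siNF45 group (2 arrays) the cells received a mixture of RNA duplexes against NF45, and in the siNTC group (2 arrays) they received a negative control siRNA, both by lipid transfection. Total RNA was hybridised to Affymetrix Mouse Gene 2.1 ST arrays, 1 sample per array. Whether a group's samples came from separate transfections is not stated in the labels, and the p-values cover only the scatter among these arrays, which may be of technical origin. Only the mixture was used, so effects of single duplexes cannot be told apart.

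MicroRNAs are cut from long primary transcripts, first in the nucleus by Drosha with its partner Dgcr8 and then in the cytoplasm by Dicer1. The mature strand is loaded onto an Argonaute protein and finds its targets mainly through its seed, bases 2 to 8. NF45 pairs with NF90, and this complex binds double-stranded RNA, including primary microRNA transcripts of the let-7 family, where it is known to hinder nuclear cleavage. In beta cells, miR-375 and miR-7 are known as abundant microRNAs that restrain insulin secretion or proliferation. A probe set on this array reads RNA that contains the hairpin region, so primary, precursor and mature forms cannot be told apart. In bulk RNA, fewer cells of a type and less RNA per cell cannot be told apart either.

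The knockdown was visible in its target. Ilf2, which encodes NF45, read 3.67 and 3.77 on the siNF45 arrays, against 5.79 and 5.98 on the siNTC arrays (log2). The difference was -2.17 (SE 0.13), or 4.48-fold. Its limma adjusted p was 0.020, and an exact two-sided permutation test over the arrays gave 0.333, below which a comparison of 2 with 2 cannot go. All 7 beta cell markers in the table reached the level threshold, with mean levels from 5.10 to 10.12, among them the hormone Iapp and the transcription factors Pdx1 and Mafa. Markers of acinar cells (0 of 6) and endothelium (0 of 3) did not reach it, while 1 of 3 duct markers (Krt7) and 2 of 4 mesenchymal markers (Col1a2 and Vim) did. Krt7 read 3.91 and 3.96 in siNF45, against 3.41 and 3.13 in siNTC. Pearson correlations between arrays over all probe sets ran from 0.970 to 0.982. The siNF45 arrays correlated at 0.975 with each other, less than siNF45 replicate 1 did with siNTC replicate 1 (0.979). The siNF45 replicate 2 array had the lowest of these correlations. For the 11 members named below whose difference changed sign without this array, the value without it is given as well.

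The mature sequences of the members on which the results turn are printed here from RefSeq (GRCm38.p6), 5′ to 3′, with the seed in capitals. RefSeq held at least 1 mature sequence for 115 of the 141 members, 189 sequences in all with 165 distinct seeds, of which 17 were shared by several members. The first set gives arms of 5 of the members with the smallest p in each direction.
miR-325-3p: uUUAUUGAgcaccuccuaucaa
miR-325-5p: cCUAGUAGgugcucaguaagugu
miR-340-5p: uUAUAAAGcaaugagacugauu
miR-342-3p: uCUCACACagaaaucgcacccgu
miR-142a-3p: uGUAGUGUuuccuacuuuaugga
miR-210-3p: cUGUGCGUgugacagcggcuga
No seed is shared within this set.

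The second set gives the families, whose members share a seed the main determinant of target choice.
let-7c-5p: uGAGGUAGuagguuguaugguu
let-7b-5p: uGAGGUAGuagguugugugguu
let-7d-5p: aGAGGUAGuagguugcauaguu
miR-7a-5p: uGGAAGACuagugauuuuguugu
miR-7b-5p: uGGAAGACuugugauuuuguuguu
miR-15a-5p: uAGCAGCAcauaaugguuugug
miR-15b-5p: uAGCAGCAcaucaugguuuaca
miR-16-5p: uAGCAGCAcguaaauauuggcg
miR-20b-5p: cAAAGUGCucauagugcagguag
miR-106b-5p: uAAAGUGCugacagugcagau
The 3 let-7 members carry GAGGUAG, the 3 miR-7 genes GGAAGAC, the 4 genes of the miR-15/16 family AGCAGCA, and Mir20b and Mir106b AAAGUGC.

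Over all 141 members, limma called 0 at an adjusted p under 0.05, against 10 of 11742 genes tested (0.0852%). At an unadjusted p under 0.05, 15 members were lower in siNF45 (10.6%), where 13.2% of all genes were, and 5 were higher (3.55%), where 4.02% of all genes were. The lower include Mir1967, Mir677, Mir27a and Mir872, which reached the level through siNTC only. The higher include Mir20b, Mir31 and Mir99b, which reached it through siNF45 only. On 34 members both siNF45 arrays lay below both siNTC arrays (24.1%, against 32.6% of all genes), and on 19 both lay above (13.5%, against 15.2%). On the deposited values these shares are near or below the background, so the members as a whole did not stand out from other genes. Most members lay below the 70th percentile of level, where 398 of 3768 genes were lower and 147 higher at that p. The counts moved with the processing. With centred arrays 29 members and 2120 of all genes had an unadjusted limma p under 0.05, and after quantile normalization 26 and 2053. The median difference over the members was -0.03 (log2), beside -0.07 over all genes tested (0.10 beside 0.07 with centred arrays). Of the members, 80 lay below 0 and 59 above, beside 7202 and 4434 of all genes. The 29 microRNA genes inside the Dlk1-Dio3 region that reached the same level had a median of -0.30, with 10 lower and 0 higher at an unadjusted p under 0.05 and 0 called by limma. No test of the difference between the 2 sets of microRNA genes was made.

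Most members lay low on the scale, and their replicates were further apart than those of other genes. The median level of the members was 2.36, beside 3.73 over all genes tested, and 86 of the 141 (61.0%) lay below the 70th percentile of all probe sets at 2.75. Replicate arrays of a member differed by a median of 0.22 in siNF45 and 0.26 in siNTC, against 0.15 in each group over all genes. The 95% interval of the difference reached more than 0.5 to either side for 42 members, and lay wholly between -0.5 and 0.5 for 38.

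**Figure D1:**
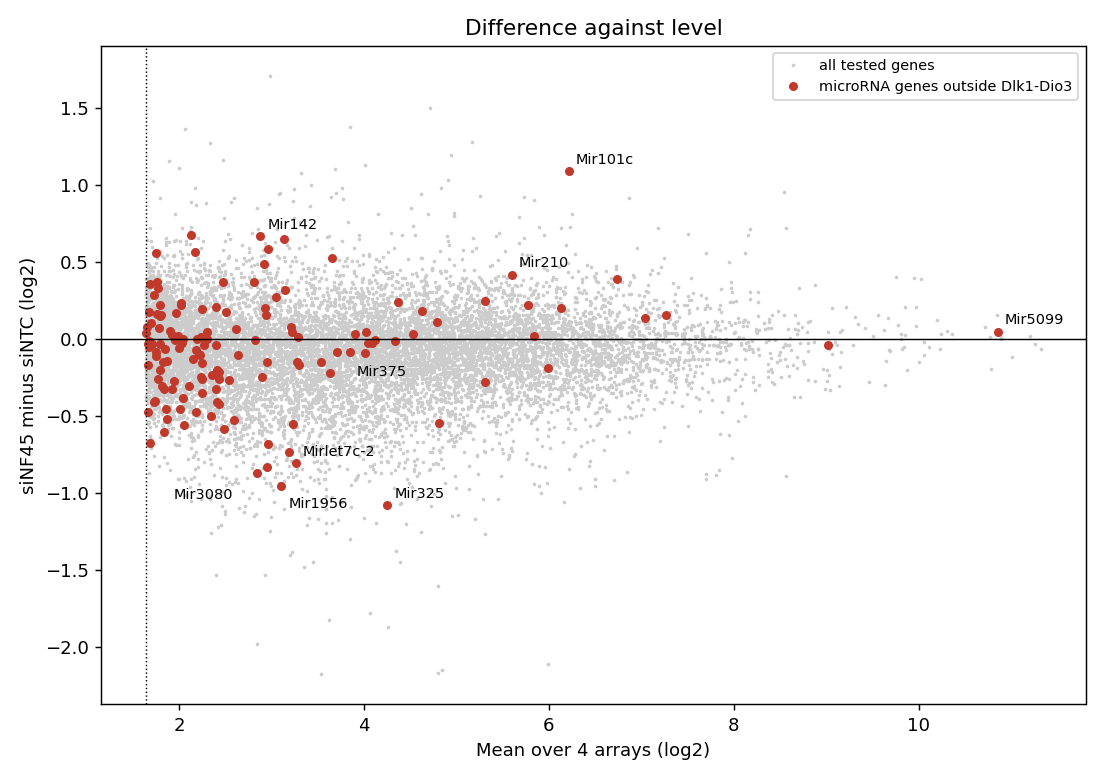
Difference between siNF45 and siNTC (log2, y axis) against the mean over 4 arrays (log2, x axis) for the 141 microRNA genes (red) and all 11742 tested genes (grey), with the level threshold of 1.65 as a dotted line. Most members lie at the left end, with Mir325 at -1.08 and Mir101c at 1.09 as the outermost points in each direction.

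The lower members were led by Mir325, and the next 9 were Mirlet7c-2, Mir670, Mir1967, Mir677, Mir340, Mir3080, Mir342, Mir185 and Mir27a, the 10 with the smallest p. Their differences ran from -1.08 to -0.41. Both siNF45 arrays lay below both siNTC arrays on each of the 10, which picking by the smallest p favours. Over all genes the share was 32.6%. None passed at the adjusted threshold, with limma adjusted p-values from 0.0708 to 0.207.

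Mir325 (X:105379082-105379179, minus strand, GRCm38.p6) read 3.74 and 3.69 on the siNF45 arrays, against 4.79 and 4.79 on the siNTC arrays. The groups stood apart by far more than the spread within either. The mean was 3.72 ± 0.04 in siNF45 and 4.79 ± 0.00 in siNTC (SD, n = 2 each), a difference of -1.08 (SE 0.12, 95% interval -1.36 to -0.79), 2.11-fold. The limma adjusted p was 0.0708. The call depended on the processing: the adjusted p was 0.0171 with a trend in eBayes, 0.0211 with centred arrays, 0.0367 with the stricter level filter and 0.0398 after quantile normalization. Leaving out 1 array at a time gave differences of -1.10 to -1.05 with adjusted p-values of 0.307 to 0.471.

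The hairpin of Mir325 is printed to show where its 2 mature arms lie, which are in capitals.
Mir325 hairpin: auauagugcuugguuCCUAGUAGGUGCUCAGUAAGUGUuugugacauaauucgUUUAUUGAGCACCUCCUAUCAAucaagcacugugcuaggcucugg
The gene lies within the long noncoding transcript 5330434G04Rik on the same strand. That transcript read 5.33 and 5.67 in siNF45, against 5.95 and 5.47 in siNTC, so its groups overlapped (difference -0.21, SE 0.21). The nearest measured microRNA gene, Mir384, lies 34.8 kb away and read 1.57 and 2.00 in siNF45, against 2.37 and 2.11 in siNTC. Its difference of -0.46 (SE 0.19) did not pass (limma adjusted p = 0.299), although its groups did not overlap.

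Mirlet7c-2 (15:85706603-85706697, plus strand) encodes one of the let-7c copies. It read 3.05 and 2.67 in siNF45, against 3.57 and 3.76 in siNTC. The groups did not overlap and differed by -0.81 (SE 0.17, 95% interval -1.23 to -0.38), 1.75-fold. The limma adjusted p was 0.132. Its hairpin is printed with both mature arms in capitals, the 5′ one carrying the let-7 seed.
Mirlet7c-2 hairpin: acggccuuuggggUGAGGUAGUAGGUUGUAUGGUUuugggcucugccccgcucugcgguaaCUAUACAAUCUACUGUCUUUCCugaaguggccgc

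Several of the other lower members lie within the bounds of protein-coding genes, on the same strand. Mir3080, within the transcriptional coregulator gene Tcf20, read 2.56 and 2.26 in siNF45, against 3.54 and 3.02 in siNTC, a difference of -0.87 (SE 0.21). Mir677, within Atp5b, a subunit of the mitochondrial ATP synthase, read 1.29 and 1.41 in siNF45, against 1.87 and 2.18 in siNTC (-0.68, SE 0.15). On both, the siNF45 arrays were the lower pair without overlap. Mir1967, within the ribosome biogenesis gene Urb2, read 1.54 and 1.53 in siNF45, against 2.02 and 2.26 in siNTC (-0.61, SE 0.14). Mir340, within the ubiquitin ligase gene Rnf130, read 2.25 and 2.41 in siNF45, against 2.90 and 2.81 in siNTC (-0.53, SE 0.13). Mir342, within the actin regulator gene Evl, read 1.92 and 1.63 in siNF45, against 2.44 and 2.22 in siNTC (-0.56, SE 0.16). The siNF45 values of Mir677 and Mir1967 lay below the level threshold, so both genes reached it through their siNTC arrays.

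Mir670 read 2.15 and 2.24 in siNF45, against 2.86 and 2.70 in siNTC (-0.59, SE 0.13). Mir185, within Tango2, read 2.84 and 3.07 in siNF45, against 3.66 and 3.35 in siNTC (-0.55, SE 0.16). Mir27a read 1.59 and 1.46 in siNF45, against 1.99 and 1.88 in siNTC (-0.41, SE 0.13), and it too reached the level threshold through its siNTC arrays. All 3 pairs of groups were separate, while the limma adjusted p-values were 0.132 for Mir670, 0.197 for Mir185 and 0.207 for Mir27a.

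The 10 higher members with the smallest p were Mir142, Mir20b, Mir210, Mir31, Mir99b, Mir28b, Mir467e, Mir301b, Mir138-2 and Mir1839. Their differences ran from 0.32 to 0.67, and the groups did not overlap on 9 of them, Mir1839 being the exception. Picking by the smallest p favours this too, and over all genes 15.2% had siNF45 higher without overlap. None passed, with limma adjusted p-values from 0.150 to 0.359.

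Mir142, known for its expression in blood cells, read 3.29 and 3.14 in siNF45, against 2.73 and 2.36 in siNTC. The difference was 0.67 (SE 0.17, 95% interval 0.26 to 1.08), 1.59-fold. The limma adjusted p was 0.150, and the gene passed only with centred arrays (0.80, adjusted p = 0.046). Ptprc, the pan-leukocyte surface marker, did not reach the level threshold, at 1.48 and 1.38 in siNF45 and 1.61 and 1.57 in siNTC. Of the 3 immune markers, Cd68 alone reached it, and the mean level of the 3 was 1.43 and 1.35 in siNF45 and 1.52 and 1.45 in siNTC.

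Mir210, which responds to low oxygen through the hypoxia-inducible factor, was the brightest of the higher members past an unadjusted p of 0.05. It read 5.90 and 5.72 in siNF45, against 5.38 and 5.40 in siNTC (0.42, SE 0.13, limma adjusted p = 0.204). Mir31 read 1.84 and 1.89 in siNF45, against 1.58 and 1.43 in siNTC (0.36, SE 0.12). Mir28b read 3.42 and 3.19 in siNF45, against 2.99 and 2.98 in siNTC (0.32, SE 0.13). In each of these 3 the siNF45 arrays were the higher pair. Mir301b read 3.32 and 3.61 in siNF45, against 2.38 and 3.25 in siNTC (0.65, SE 0.30). Mir138-2 read 3.21 and 3.12 in siNF45, against 3.01 and 2.34 in siNTC (0.49, SE 0.23). Mir1839 read 2.82 and 2.10 in siNF45, against 2.10 and 1.69 in siNTC (0.57, SE 0.27). For these last 3 the replicates of 1 group were further apart than the groups were.

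**Figure D2:**
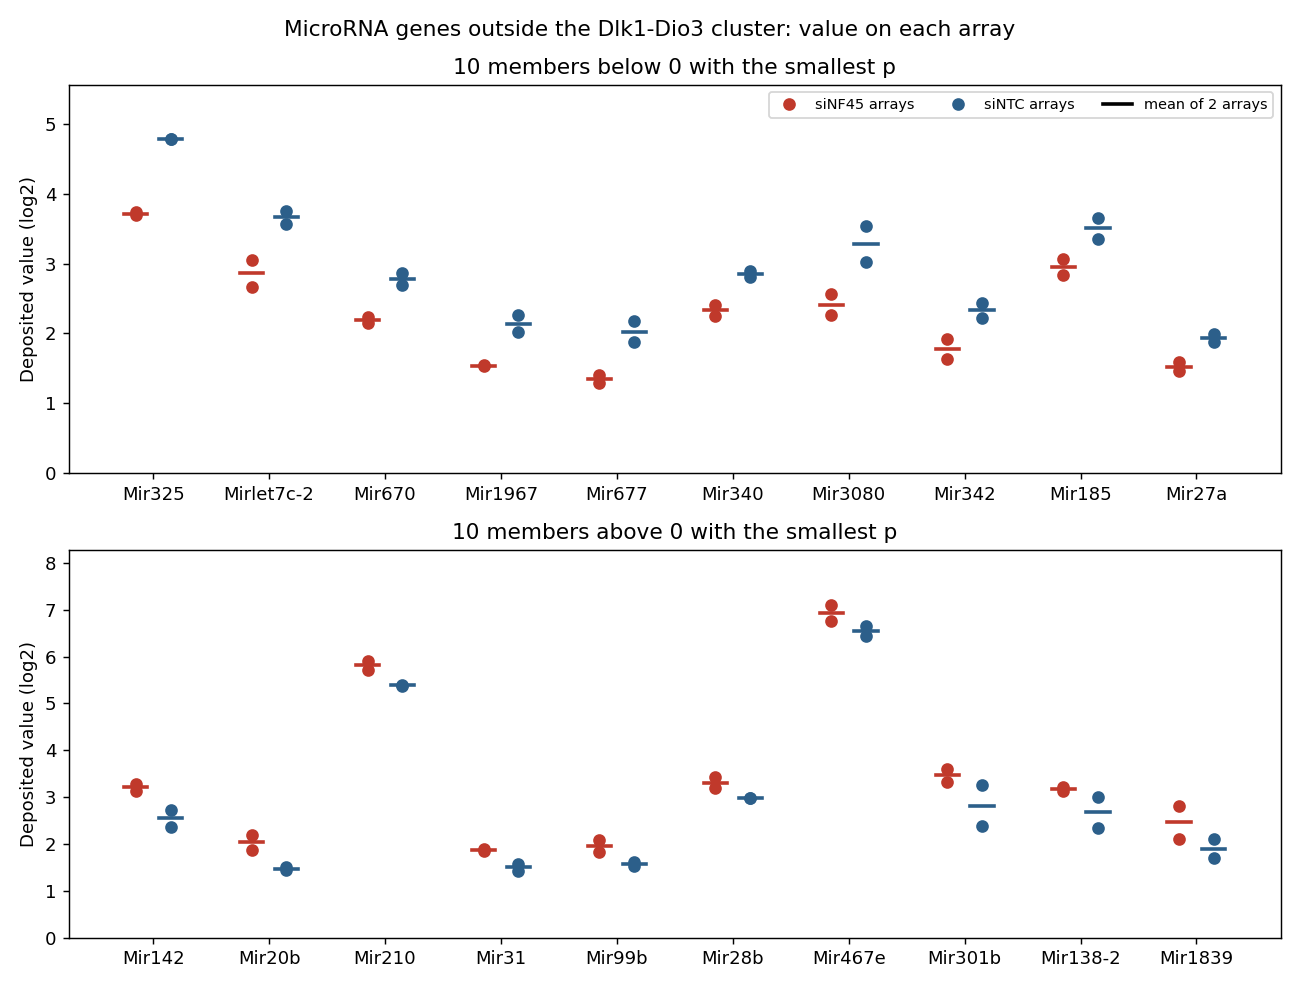
Deposited value (log2, y axis) on each array for the 10 members with the smallest p below 0 (upper panel) and above 0 (lower panel), with siNF45 arrays in red to the left of siNTC arrays in blue and a bar at each mean of 2 arrays. Mir325 has the widest gap against its spread, at 3.74 and 3.69 in siNF45 and 4.79 and 4.79 in siNTC.

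The let-7 family restrains growth genes and marks differentiated cells. Of 12 let-7 genes in the table, 3 reached the level threshold. All 3 had differences below 0, as did 7202 of all 11742 genes tested. The median of the 3 was -0.17, and Mirlet7b lay above 0 with centred arrays. Mirlet7d reached the threshold through its siNTC mean only, which favours a difference below 0. Besides Mirlet7c-2, Mirlet7d read 1.49 and 1.67 in siNF45, against 1.72 and 1.77 in siNTC (-0.17, 95% interval -0.48 to 0.15). Mirlet7b, 0.7 kb from Mirlet7c-2 in the same host transcript Lncppara, read 1.85 and 1.55 in siNF45, against 1.92 and 1.70 in siNTC. Its groups overlapped, and the difference of -0.11 (95% interval -0.51 to 0.29) turned to 0.02 with centred arrays and to 0.04 without siNF45 replicate 2. The pair in 1 host transcript thus had a difference of -0.81 in one gene and -0.11 in its neighbour, which was not tested as a difference between genes. The 9 let-7 genes under the threshold had mean levels from 1.00 to 1.58. Among them the siNF45 arrays were the higher pair on Mirlet7c-1 and the lower pair on Mirlet7i.

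Of 33 genes on a list of microRNAs known from islets, 7 reached the threshold. All 7 had differences below 0, as did 7202 of all 11742 genes tested. The 7 differences ran from -0.52 to -0.03 with a median of -0.20, although Mir375 and Mir184 lay above 0 with centred arrays. The lowest, Mir7-1, reached the threshold through its siNTC mean only. Islet-list genes under the threshold had mean levels from 0.7475 to 1.565 and were not tested. They lay in both directions: the siNF45 arrays were the higher pair on Mir182 and Mir30e, and the lower pair on Mir212. The 7 therefore do not stand for the whole list. None passed at an unadjusted p under 0.05, and limma called 0. Mir375, the best known islet microRNA, read 3.85 and 3.76 in siNF45, against 4.01 and 3.77 in siNTC. The groups overlapped, and the difference of -0.09 (SE 0.14, 95% interval -0.43 to 0.26) turned to 0.01 after quantile normalization, 0.05 with centred arrays and 0.04 without siNTC replicate 1. A change beyond 0.43 in either direction therefore lies outside its interval.

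Mir9-1, which in beta cells is known to act on secretion through the factor Onecut2, read 3.59 and 3.45 in siNF45, against 3.78 and 3.70 in siNTC (-0.22, 95% interval -0.53 to 0.09). Mir153, within the secretory granule gene Ptprn2, read 3.21 and 3.22 in siNF45, against 3.49 and 3.28 in siNTC (-0.17, 95% interval -0.49 to 0.15). The siNF45 arrays were the lower pair on both genes, and both intervals included 0. Ptprn2 itself read 7.56 and 7.59 in siNF45, against 7.42 and 7.28 in siNTC, a difference of 0.23 in the other direction that did not pass either (limma adjusted p = 0.413). Mir184, known to target Ago2 in beta cells, read 1.64 and 1.67 in siNF45, against 1.82 and 1.55 in siNTC (-0.03), with overlap.

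The 3 genes that encode miR-7 differed in how well they were measured. Mir7-2 read 2.01 and 2.22 in siNF45, against 2.48 and 2.24 in siNTC (-0.25, 95% interval -0.61 to 0.12). Mir7b read 2.04 and 1.35 in siNF45, against 2.30 and 1.49 in siNTC (-0.20, 95% interval -1.03 to 0.63). Mir7-1, within Hnrnpk, read 2.41 and 0.82 in siNF45, against 1.92 and 2.35 in siNTC (-0.52, 95% interval -1.76 to 0.72). The low value of Mir7-1 came from siNF45 replicate 2, and without that array the difference was 0.28. Mir7b likewise stood at 0.15 without it.

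The miR-15/16 family is known for suppressing growth. Of its 6 listed genes 4 reached the threshold, in a cluster on chromosome 14 and another on chromosome 3, 3 below 0 and 1 above, with a median of -0.26. Mir15a, the brightest of them, read 6.08 and 5.71 in siNF45, against 5.94 and 6.22 in siNTC (-0.19, 95% interval -0.63 to 0.26). Mir16-1, its neighbour in the same host Dleu2, read 2.57 and 2.43 in siNF45, against 2.05 and 2.53 in siNTC (0.21, 95% interval -0.26 to 0.68). The groups overlapped on both, and the signs were opposite. Dleu2 read 5.95 and 5.71 in siNF45, against 6.23 and 6.27 in siNTC (-0.42, SE 0.14, limma adjusted p = 0.221), with both siNF45 arrays lower. In the other cluster on chromosome 3, Mir15b differed by -0.38 (SE 0.20) and Mir16-2 by -0.33 (SE 0.27), and Smc4, the gene that contains them, by -0.15.

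Of 10 listed genes of the growth-promoting miR-17-92 cluster and its paralogues, 2 reached the threshold. Mir20b, on chromosome X, read 1.88 and 2.19 in siNF45, against 1.51 and 1.44 in siNTC (0.56, SE 0.15, limma adjusted p = 0.165), with siNF45 higher on both arrays. Its siNTC values lay below the level threshold, as did those of Mir31 and Mir99b. Mir106b, within the replication gene Mcm7 and with the same seed, read 2.06 and 2.32 in siNF45, against 2.24 and 2.14 in siNTC, a difference of 0.00 (95% interval -0.35 to 0.35). Of the 5 genes listed for the miR-99, miR-100 and miR-125 clusters, only Mir99b reached the threshold, at 1.82 and 2.08 in siNF45, against 1.54 and 1.61 in siNTC (0.38, SE 0.14, limma adjusted p = 0.261).

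Among 7 listed microRNA genes regulated by p53, 4 reached the threshold, 2 below 0 and 1 above, with a median of -0.01, Mir194-2 turning above 0 with centred arrays. Mir194-2 read 3.88 and 4.18 in siNF45, against 3.43 and 4.68 in siNTC (-0.03, 95% interval -1.01 to 0.96). Mir34b read 3.18 and 3.19 in siNF45, against 3.04 and 2.78 in siNTC (0.28, 95% interval -0.07 to 0.62). The interval of Mir194-2 was wide, and its siNTC arrays lay far apart. Of 19 microRNA genes listed for muscle, blood and other cell types, 3 reached the threshold, and besides Mir142 these were Mir143 and Mir199a-1, at -0.15 and 0.15. Mir143 read 1.77 and 1.73 in siNF45, against 1.76 and 2.04 in siNTC, and its groups overlapped. None of the 6 listed genes of embryonic stem cells (the miR-290 and miR-302 groups) reached it.

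The miR-297, miR-466, miR-467 and miR-669 genes form a rodent-specific tandem array within Sfmbt2 on chromosome 2, and 14 of 24 listed members reached the threshold, in groups of 5 and 9 by distance. The median of the 14 was 0.06, and 9 of them were above 0, joined by Mir669g and Mir466b-3 with centred arrays. Mir467c read 6.94 and 7.27 in siNF45, against 6.80 and 7.14 in siNTC (0.14, SE 0.18, and -0.03 without siNF45 replicate 2). Mir467e read 6.76 and 7.11 in siNF45, against 6.44 and 6.65 in siNTC (0.39, SE 0.17, limma adjusted p = 0.312). These 2 were by far the brightest of the array, and the groups overlapped on Mir467c and not on Mir467e. Sfmbt2 itself lay far lower, at 2.50 and 2.13 in siNF45 and 2.34 and 2.23 in siNTC, and differed by 0.03.

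In the first group, the members other than Mir467c differed by 0.59 (Mir669j), 0.37 (Mir669a-3), 0.07 (Mir669k) and -0.01 (Mir669g), with overlap on all 4. Mir669a-3 stood at -0.03 without siNF45 replicate 2. The values of Mir669k are those of its brightest probe set, and its others differed by -0.005 to 0.385. The 2 at 0.385 did not overlap, at 2.61 and 2.75 in siNF45, against 2.29 and 2.30 in siNTC. In the second, Mir297b was the only one at an unadjusted p under 0.05, at 2.03 and 2.17 in siNF45, against 2.38 and 2.81 in siNTC (-0.50, SE 0.18, limma adjusted p = 0.246). The other 7 of that group, Mir466b-2, Mir466b-3, Mir669m-1, Mir669m-2, Mir466h, Mir297a-4 and Mir669i, differed by -0.27 to 0.34. The highest of these, Mir297a-4, reached the level threshold through its siNF45 mean only, which favours a difference above 0. It read 2.19 and 1.02 in siNTC, and without siNTC replicate 2 its difference was -0.25. Without siNF45 replicate 2 the sign changed for Mir466b-2 (0.075), Mir466b-3 (0.02), Mir466h (0.185), Mir669m-1 (-0.275) and Mir669m-2 (-0.055). Neighbouring members thus lay on both sides of 0. Repeat copies share sequence, and several probe sets of Mir466b-2, Mir669g and Mir669k held identical values on all 4 arrays, so these genes cannot be taken as separate measurements of separate loci.

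Of 62 microRNA genes on chromosome X, 12 reached the threshold, 7 below 0 and 5 above, with a median of -0.06. They include Mir325 and Mir20b, which had the smallest p of all lower and the second smallest of all higher members. Mir2137, the brightest of the 12, read 4.97 and 4.10 in siNF45, against 4.58 and 5.58 in siNTC (-0.55, 95% interval -1.56 to 0.47), and its groups overlapped. The members on this chromosome thus lay on both sides of 0.

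**Figure D3:**
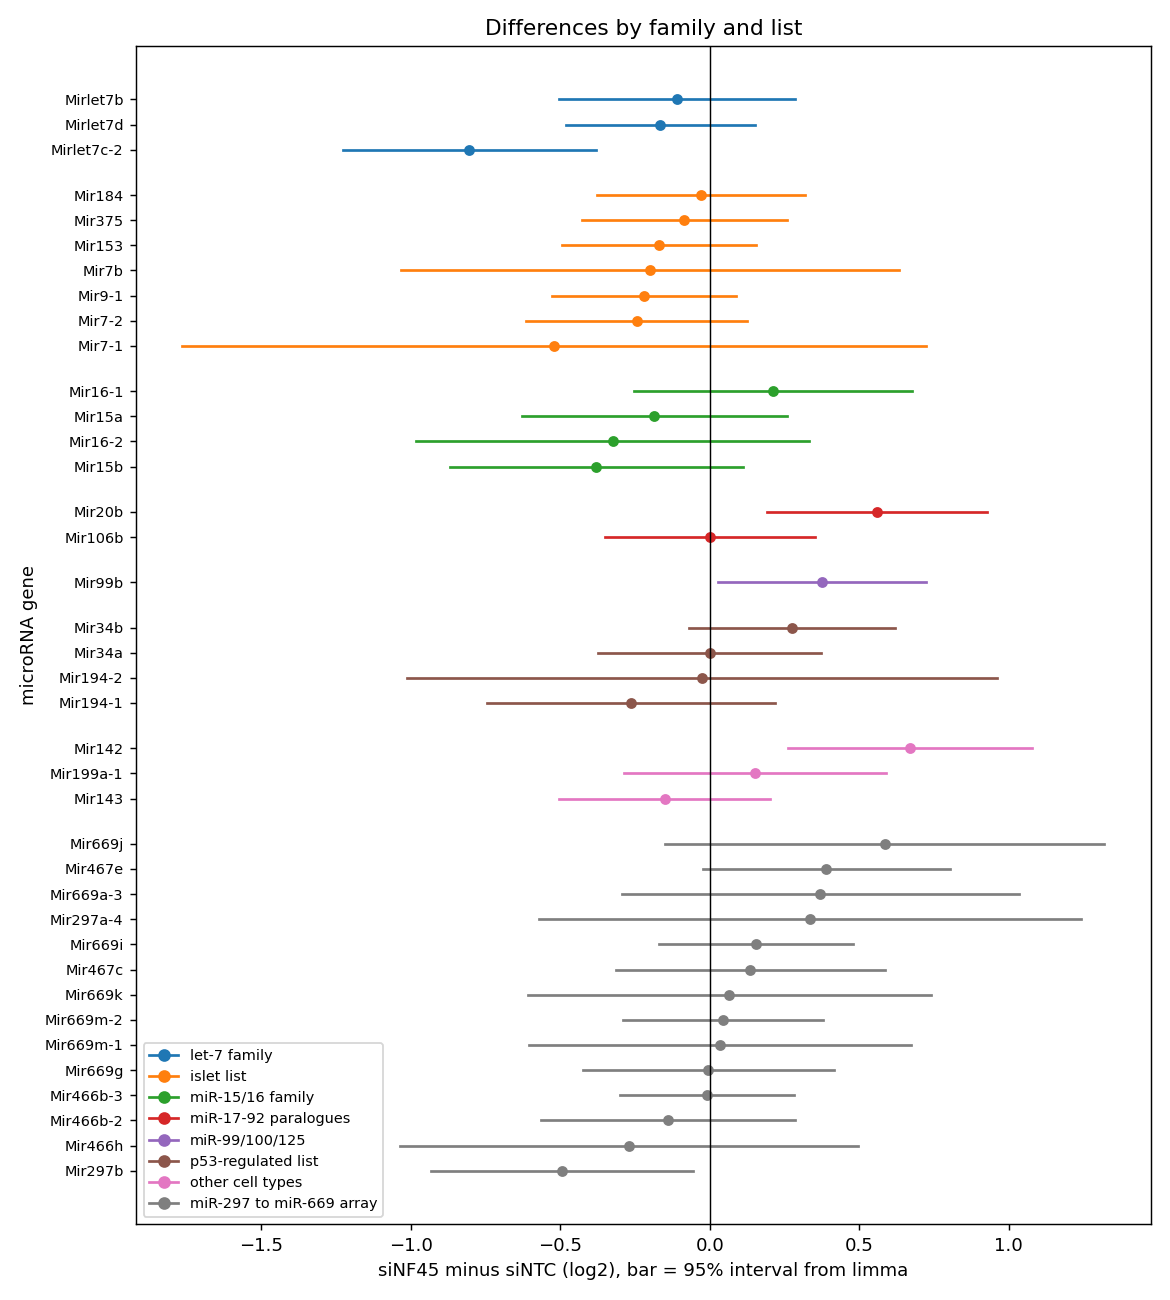
Difference between siNF45 and siNTC (log2, x axis) for each member of the named families and lists, as a point with its 95% interval from limma as a bar. All let-7 and islet members lie below 0 on the deposited values (Mirlet7b, Mir375 and Mir184 lie above it with centred arrays), with all bars but that of Mirlet7c-2 crossing it, while the members of the array within Sfmbt2 lie on both sides.

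Most members with a known strand lie within a longer gene, so each was set beside its host. By the RefSeq annotation, 75 of the 141 lay within a gene on the same strand, 32 lay between genes, and 4 only within a gene on the opposite strand. The other 30 lay within a gene, but the strand of the microRNA gene or of the gene around it was not in the tables used. Of the 75, 12 were lower and 2 higher (2.67%) at an unadjusted p under 0.05, beside 13.2% and 4.02% of all genes, with a median of -0.06. Of the 32 between genes, 2 were lower (6.25%) and 3 higher (9.38%), with a median of -0.03.

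For 61 members the host was itself tested, 57 hosts in all, with a median difference of -0.09. The 2 differences had the same sign in 39 of the 61 pairs. More genes of both kinds lay below 0 than above, 80 of the 141 members and 7202 of all 11742 genes. Equal signs are therefore favoured for unrelated genes too. Over the pairs, Pearson's r was 0.134 and Spearman's rho 0.265, a description only, since both values of a pair come from the same arrays and pairs can share a host. At an unadjusted p under 0.05, 10 hosts were lower (17.5%) and 2 higher (3.51%), against 13.2% and 4.02% of all genes.

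Pairs in which both were lower include the growth factor gene Igf2, which read 7.50 and 7.31 in siNF45, against 7.91 and 7.83 in siNTC (-0.47, SE 0.13). Mir483 within it read 3.15 and 2.50 in siNF45, against 3.21 and 3.90 in siNTC (-0.73, SE 0.30). Both were lower in siNF45 without overlap, and neither passed (limma adjusted p = 0.181 for Igf2 and 0.301 for Mir483). Pank1, an enzyme of coenzyme A synthesis, differed by -0.48 and Mir107 by -0.31. R3hdm1 differed by -0.45 and Mir128-1, which reached the threshold through its siNTC mean only, by -0.40, and the fibroblast growth factor homologue Fgf12 by -0.58 and Mir690 by -0.83. All these pairs were singled out after their values were seen.

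Other pairs parted. Nexmif, a gene of chromosome X linked to neuronal development, was the only host that passed, at 1.88 and 1.82 in siNF45, against 3.80 and 3.86 in siNTC (-1.98, SE 0.12, limma adjusted p = 0.020). Mir672 within it lay at the level threshold, at 1.75 and 1.58 in siNF45, against 1.64 and 1.61 in siNTC (0.04, SE 0.13). It reached the threshold through its siNF45 mean only, which favours a difference above 0. Its low siNTC values left no room for a fall like that of Nexmif. This pair therefore cannot show whether host and microRNA gene went together. Eif4e, the cap-binding translation factor, differed by -0.08, while Mir1956 within it read 2.90 and 2.35 in siNF45, against 4.06 and 3.10 in siNTC (-0.96, SE 0.35, limma adjusted p = 0.252). Tcf20 read 7.90 and 7.93 in siNF45, against 7.95 and 7.88 in siNTC, a difference of 0.00 beside -0.87 in Mir3080. Spaca6 differed by -0.43 (SE 0.14), opposite to Mir99b within it at 0.38, which reached the threshold through its siNF45 mean only. The choice of these pairs was also made with their values known.

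**Figure D4:**
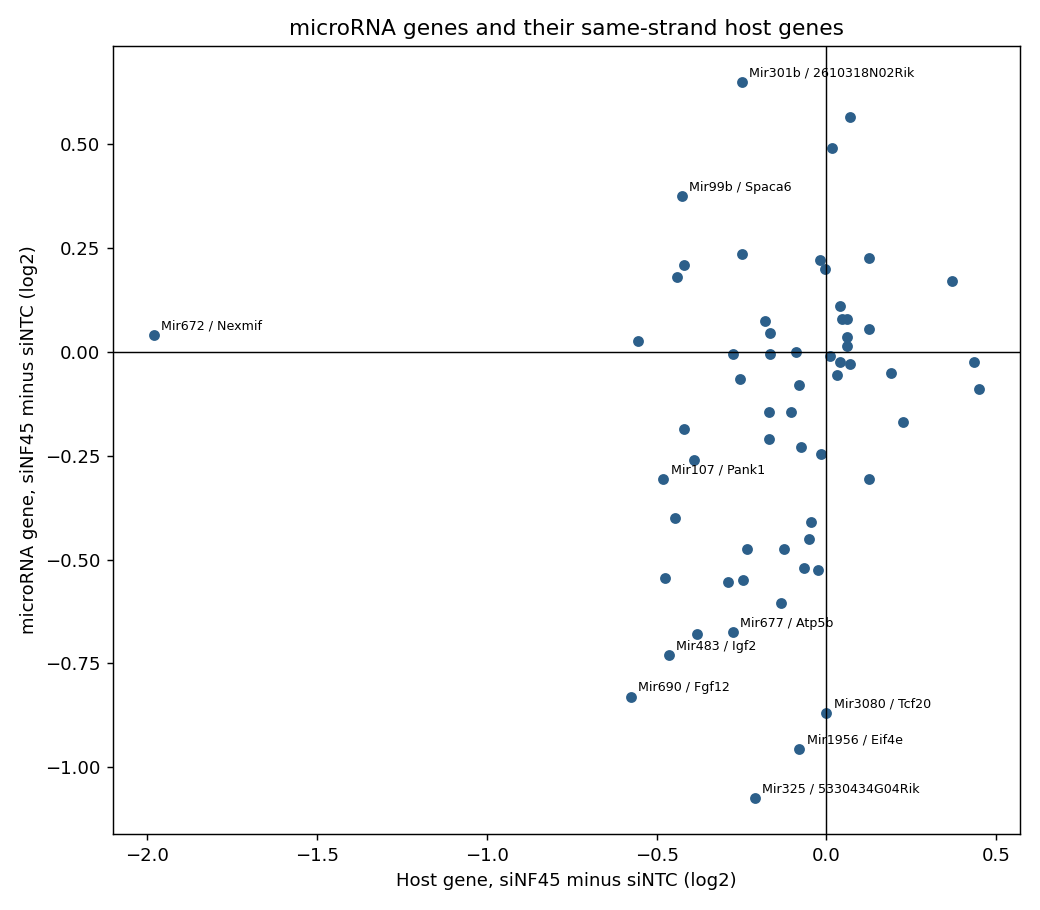
Difference between siNF45 and siNTC (log2) of 61 microRNA genes (y axis) against that of their same-strand host genes (x axis), 1 point per pair. Points fill all 4 quadrants, and Nexmif at -1.98 stands beside Mir672 at 0.04, which lay at the level threshold with no room for a like fall.

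The brightest members were looked at after their values were seen, since they are the best separated from the floor of the scale. Mir5099 read 10.90 and 10.86 in siNF45, against 10.65 and 11.01 in siNTC (0.05, 95% interval -0.34 to 0.44). Mir449b read 9.12 and 8.89 in siNF45, against 9.10 and 8.98 in siNTC (-0.04, 95% interval -0.38 to 0.31). Mir703 read 7.21 and 7.49 in siNF45, against 7.25 and 7.13 in siNTC (0.16, 95% interval -0.20 to 0.52). The groups overlapped on all 3. Mir101c read 6.31 and 7.21 in siNF45, against 6.41 and 4.93 in siNTC, so its difference of 1.09 was the highest of all members but 1 siNTC array lay far below the other (95% interval -0.21 to 2.39, limma adjusted p = 0.361).

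Values at the threshold show how close members and non-members lay. Just inside it were Mir184 (mean 1.67), Mirlet7d (1.66), Mir872 (1.66), Mir344e (1.65) and Mir672 (1.65). Just outside were Mir423 (1.64), Mir103-2 (1.64), Mir669c (1.63), Mir23b (1.63) and Mir1962 (1.63). A few hundredths of a log2 unit decided membership there, less than the median replicate gap of the members.

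The genes that process microRNAs were read on the same arrays. Of 20 that were measured, 14 lay below 0 and 5 above, with a median of -0.17 beside -0.07 over all genes, and limma called 0, with 6 lower (30.0%, against 13.2% of all genes) and 0 higher (against 4.02%) at an unadjusted p under 0.05. Drosha, the nuclear nuclease, read 4.81 and 4.83 in siNF45, against 5.49 and 5.30 in siNTC (-0.58, SE 0.13, limma adjusted p = 0.134). Dhx9, an RNA helicase that binds the NF45 complex, read 6.81 and 6.70 in siNF45, against 7.18 and 7.31 in siNTC (-0.49, SE 0.13, limma adjusted p = 0.157). On both genes the siNF45 arrays were the lower pair. The helicase Ddx17, the editing enzyme Adar and the silencing factor Tnrc6c differed by -0.41, -0.37 and -0.35, also without overlap. The count of 6 lower genes depended on the processing. With centred arrays the unadjusted limma p-values were 0.0795 for Ddx17, 0.12 for Adar and 0.152 for Tnrc6c. Those of Drosha (0.0132) and Dhx9 (0.0342) stayed under 0.05. Tnrc6a, a paralogue of Tnrc6c, read 5.64 and 5.58 in siNF45, against 5.47 and 4.96 in siNTC (0.40, SE 0.19, limma adjusted p = 0.361), and the siNF45 arrays were also the higher pair on Tut4 (0.14) and Xpo5 (0.08). Dicer1 read 4.93 and 4.94 in siNF45, against 4.92 and 4.95 in siNTC, and Ago2 differed by -0.15. Whether these levels bear on those of the microRNA genes was not tested.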

How the data were processed

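Total RNA from 4 samples was read on 1-colour arrays. The authors deposited log2 values, 1 for each probe set on each array, made with Transcriptome Analysis Console per the submitters' processing notes. The sources used give neither the version, the summarisation and the background correction nor the log base, which was taken as 2 from the range of the values (0.12 to 12.21). Array medians over all probe sets were 1.66 and 1.66 in siNF45 and 1.64 and 1.64 in siNTC. Over the tested genes they were 3.72 and 3.60 in siNF45 and 3.82 and 3.76 in siNTC, an offset that the centred fits remove. Probe sets with 1 gene symbol (23521; 1814 had several and 16010 none) were named from the platform annotation, checked against RefSeq (GRCm38.p6, 23328 found). Another 136 microRNA probe sets with several symbols were left out. The brightest probe set stood for a gene.

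The siNF45 and siNTC arrays were fitted by limma (3.58.1, under R 4.3.3; lmFit, then eBayes, 2 residual and 3.69 prior degrees of freedom), as siNF45 minus siNTC, using Benjamini-Hochberg adjustment over 11742 genes at 0.05. The scripts were tested on simulated data. The number of arrays limits the precision. Members, lists, and the rule for named genes were chosen with earlier results of these data known: the rule named the 10 members with the smallest p in each direction, all let-7 and islet members, the 2 brightest of each other list, clusters of 3 or more within 10 kb, the 5 members on each side of the level threshold and 5 processing genes. Hosts are genes that contain the microRNA gene on its strand. Alternatives were other filters, quantile normalization, centring, trend or robust eBayes, a replicate block, the mean of all probe sets and leaving out each array.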

Additional observations from a re-analysis of the deposited data

How the results depend on the processing

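Over all genes, limma called 10 (1 higher, 9 lower). It called 87 with the level filter at the 70th percentile (17 higher, 70 lower), 62 after quantile normalization (18 higher, 44 lower), 172 with arrays centred on their median (71 higher, 101 lower), 174 with a trend in eBayes (40 higher, 134 lower), 190 at an adjusted p under 0.10, 0 with the replicate number as a block (1909 at an unadjusted p under 0.05) and 0 without any 1 array, where 1236 to 1670 genes had an unadjusted p under 0.05. Of the members it called 0 in most settings, 1 with the stricter filter, quantile normalization, the trend or the threshold of 0.10 (Mir325 each time), and 2 with centred arrays (Mir325 and Mir142). The member median of -0.03 became 0.10 with centred arrays, where the median of all genes stood at 0.07, was 0.02 both without a level filter and with the stricter one, -0.01 after quantile normalization, and lay between -0.11 and -0.02 without any 1 array. Ilf2 differed by -2.17 under the replicate block (adjusted p = 0.258) and by -2.26 to -2.07 without any 1 array (adjusted p = 0.307 to 0.471), and kept its call elsewhere. The block tested numbers that the labels do not state to be pairs, and same-number deviations correlated at 0.006 over tested genes and -0.07 over members. Among 58 named genes, 38 of 666 alternative values had the opposite sign, in 20 genes. In 3 the difference had exceeded its SE, all without siNF45 replicate 2. Over the fits without 1 array, Mir7-1 ran from -1.32 to 0.28, Mir16-2 from -0.73 to 0.075, and Mir669a-3 from -0.03 to 0.77. The cause of these changes was not tested. Fits without 1 array assume that the lone array varies like the other group.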
